A study of Mus musculus with 4 samples.

Results

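Small nucleolar RNAs (snoRNAs) were read out as the 110 genes of the deposited table whose symbols begin with Snord (74 genes, box C/D) or Snora (36 genes, box H/ACA), out of 24426 genes in all. RNA was sequenced from germ cells of male C57BL/6 mice with no genetic change or treatment, in 4 libraries of 1 stage each. Spermatogonia (SG) came from 30 mice aged 7 days. Preleptotene spermatocytes (PlpSC), leptotene/zygotene spermatocytes (L/ZSC) and pachytene spermatocytes (PaSC) came from 5 mice aged 17 days. Cells were sorted by size on a sedimentation column (STA-PUT) once most Sertoli cells had stuck to the culture dish, so a library is a fraction enriched for 1 stage and can hold other testis cells. Ribosomal RNA was removed from column-purified total RNA before strand-specific libraries were made. RNAs without a poly(A) tail, as snoRNAs are, could thus be sequenced. How much RNA as short as snoRNAs the purification column kept was not tested, so their levels may not be those of the cells. Values are FPKM, the number of sequenced fragments of a gene relative to its transcript length and to all mapped fragments of the library. There was no replicate of any stage, so no difference below has a replicate check, an SD or a test.

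The stage labels were checked before use. Against the lncRNA values published with the study, the column labelled PlpSC was proportional within 1% to the PlpSC values at 642 of 642 lncRNAs, whereas the SG label was not borne out. That column followed the published PaSC values at 653 of 653 lncRNAs and the published SG values at 4 of 373. The columns labelled L/ZSC and PaSC followed none of the published columns, with 10 of 559 and 5 of 577 lncRNAs within 1% of their own label. Of the spermatogonial marker genes, 6 of 8 of the undifferentiated and 4 of 5 of the differentiating list were highest in the PlpSC column and none in the SG column. Their summed levels ran otherwise, with 89.4 FPKM in the SG column, 71.3 in the PlpSC column, 95.3 in the L/ZSC column and 54.1 in the PaSC column for the undifferentiated list, and 261, 155, 372 and 469 FPKM for the differentiating one. Of the meiotic prophase genes 5 of 7 were highest in the PlpSC column and 2 in the PaSC column. Their sums were 596, 1465, 579 and 421 FPKM in the order of the labels. In the SG column pachytene markers summed to 5187.5 FPKM, against 686 in the PlpSC column, 7978 in the L/ZSC column and 8244 in the PaSC column. The defining Sertoli genes were highest in the SG column (6 of 7), and all 7 spermatid genes in the PaSC column. A column is therefore only called by its label (the SG column and so on), and columns are given in the order of the labels. Words such as step, course and later refer to that order only and are not read as a sequence in time.

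snoRNAs are short, stable RNAs of the nucleolus that pair with other RNAs, above all ribosomal RNA, and direct its chemical modification. Box C/D snoRNAs carry a C box near the 5′ end and a D box near the 3′ end, bind fibrillarin and guide 2′-O-methylation. Box H/ACA snoRNAs fold into hairpins, end in an ACA box close to the 3′ end, bind dyskerin and guide the change of uridine to pseudouridine. In mammals most are cut out of introns of host genes, many of which encode ribosomal proteins or other parts of the translation machinery.

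The classes given by the symbols were borne out by the sequences. Of 73 box C/D genes with a sequence in GENCODE M21 (GRCm38), 46 (63.0%) held the letters TGATGA, the C box, within the first 20 nt, and 71 (97.3%) held CTGA, the D box, within the last 20 nt. Among 36 box H/ACA genes these letters occurred in 0 and 4 genes, and among 138764 other annotated transcripts in 0.475% and 9.01%. ACA lay exactly 3 nt before the 3′ end in 30 H/ACA genes (83.3%), in no C/D gene and in 2.27% of other transcripts. Searches covered the transcribed strand only, and a run CTGATGA would count as both C and D box. The sequences of 4 of the 8 highest C/D genes, and of Snord34, which had a pattern of its own, are given with their boxes in capitals. Snord104 lies on chr11:106500993-106501062 (plus strand) outside any annotated gene of its strand, Snord57 on chr2:130278016-130278087 (plus) in an intron of Nop56, Snord15b on chr7:99479563-99479707 (minus) in an intron of Rps3, and Snord32a and Snord34 on chr7:45127382-45127464 and chr7:45126601-45126670 (minus) in introns of Rpl13a.
Snord104: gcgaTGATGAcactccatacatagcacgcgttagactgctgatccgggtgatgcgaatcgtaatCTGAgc
Snord57: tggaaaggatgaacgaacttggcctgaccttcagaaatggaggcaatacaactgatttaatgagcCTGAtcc
Snord15b: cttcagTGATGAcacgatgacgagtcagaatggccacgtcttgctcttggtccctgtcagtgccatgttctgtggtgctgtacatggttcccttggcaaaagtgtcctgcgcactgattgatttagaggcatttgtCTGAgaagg
Snord32a: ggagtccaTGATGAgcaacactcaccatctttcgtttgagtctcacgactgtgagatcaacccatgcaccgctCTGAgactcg
Snord34: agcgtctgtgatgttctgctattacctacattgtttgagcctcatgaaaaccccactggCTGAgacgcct
Snord104, Snord15b and Snord32a show both boxes, whereas Snord57 and Snord34 hold a D box but not the exact letters of the C box.

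For the H/ACA class the highest gene, the gene with the largest ratio of the PlpSC column to the SG column, and a gene above 0 in every library are given, with the ACA box in capitals. Snora26 lies on chr5:74093530-74093650 (plus) in an intron of the long noncoding RNA Dancr, Snora52 on chr7:141448803-141448939 (plus) in an intron of Rplp2 and Snora21 on chr11:97781639-97781775 (minus) in an intron of Rpl23.
Snora26: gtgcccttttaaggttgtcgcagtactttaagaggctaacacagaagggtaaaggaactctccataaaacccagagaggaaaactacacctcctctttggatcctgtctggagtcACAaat
Snora52: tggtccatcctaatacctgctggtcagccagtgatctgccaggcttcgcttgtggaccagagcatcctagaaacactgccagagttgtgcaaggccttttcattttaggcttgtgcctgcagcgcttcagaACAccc
Snora21: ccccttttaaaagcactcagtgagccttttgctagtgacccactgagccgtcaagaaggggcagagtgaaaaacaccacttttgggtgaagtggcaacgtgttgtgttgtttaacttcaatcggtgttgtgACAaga
All 3 end in ACA and a further 3 nt.

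The C/D genes held a large part of all FPKM and the H/ACA genes a small one. The C/D share of the column sum was 24.1% in the SG column, 49.9% in the PlpSC column, 32.3% in the L/ZSC column and 14.03% in the PaSC column. For H/ACA genes the shares were 0.405%, 1.13%, 0.653% and 0.135% in the same order. Both classes were thus highest in the PlpSC column and lowest in the PaSC column. These are shares of FPKM and not of reads. Nor does multiplying by transcript length give reads where FPKM divides by only a part of that length. Multiplied by transcript length, the values of both classes made up 1.32% of the SG column, 6.77% of the PlpSC column, 1.91% of the L/ZSC column and 0.631% of the PaSC column.

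Much of the difference in column sum between the libraries lay in short RNAs. The SG column summed to 1017707 FPKM, the PlpSC column to 2571633, the L/ZSC column to 1117543 and the PaSC column to 858436, whereas the 23122 genes with transcripts over 300 nt, or with no length, summed to 645214, 652376, 645184 and 661570 FPKM. The near-equal sums include Rpph1, the RNA of RNase P (325 nt), without which the other 23121 genes summed to 569937, 523351, 622659 and 654170 FPKM. Rmrp, the RNA of the ribosomal RNA processing enzyme RNase MRP (275 nt), held 11.7%, 22.8%, 8.77% and 2.55% of the 4 columns. The other 1193 genes of 300 nt or less, mostly microRNA precursors by number, held 0.431%, 0.769%, 0.522% and 6.22%. Of their 53373 FPKM in the PaSC column, 51895 FPKM were those of Scarna17. The plot of summed FPKM by kind of gene shows these parts.

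**Figure D1:**
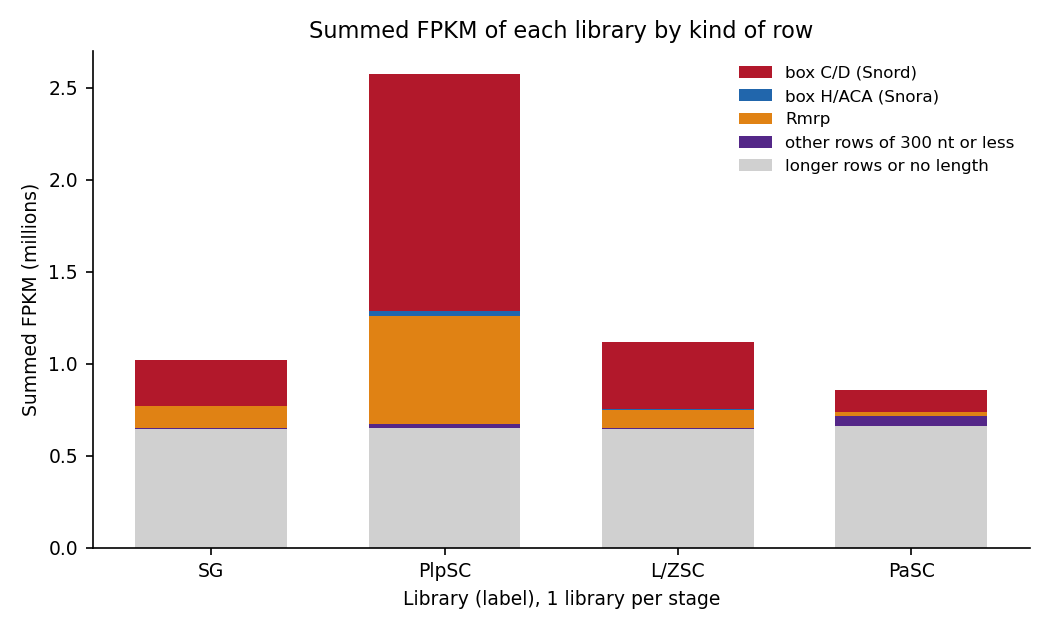
Summed FPKM of each library (in units of 1e+06 FPKM, 1 bar per library, in the order of the labels), split by kind of gene, with box C/D at the top. The grey part, genes with transcripts over 300 nt or no length, lies between 645184 and 661570 FPKM in every library (between 523351 and 654170 without Rpph1), while the C/D part is 120427 in the PaSC column and 1283750 in the PlpSC column.

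Most of this came from few genes. Snord104, which in human guides methylation of 28S ribosomal RNA, was at 91466 FPKM in the SG column, 528351 in the PlpSC column, 172361 in the L/ZSC column and 66085 in the PaSC column. It was the highest gene of the whole table in the L/ZSC column and the PaSC column and the second highest, behind Rmrp, in the SG column and the PlpSC column. It alone held 36.7%, 40.2%, 46.8% and 54.4% of all snoRNA FPKM. Of the 10 highest genes of each column, 7, 8, 8 and 4 were C/D snoRNAs, and none was an H/ACA snoRNA.

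The other 7 of the 8 highest C/D genes differed in the columns in which they were above 0. Snord57, carried by an intron of a gene for a C/D core protein, was listed at 0 in the SG column, at 134851 FPKM in the PlpSC column, at 55590.1 in the L/ZSC column and at 0 in the PaSC column. Snord49a was at 81322 FPKM in the PlpSC column and listed at 0 in the other 3. Its neighbour Snord49b, in the same host 2410006H16Rik, was at 49933 FPKM in the SG column and 57664 in the PlpSC column and listed at 0 in the L/ZSC column and the PaSC column. These genes were either at 0 or at 49933 FPKM and above. Cuffdiff can also write 0 where it fails to estimate a gene, so a 0 is read here only as an entry of the table.

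Snord45c had 34405 FPKM in the SG column, 80373 in the PlpSC column and 0 in the last 2 libraries. Snord12, in the noncoding host Zfas1, had 44782 FPKM in the PlpSC column and 0 elsewhere. Snord15b had 16559, 64074, 17654.5 and 7693 FPKM in the order of the labels, and was the only one of these 3 above 0 in all libraries. Snord32a, which in human guides methylation of both 18S and 28S ribosomal RNA, had 19697, 44172, 18879 and 4298 FPKM. Snord15b and Snord32a, like Snord104, were highest in the PlpSC column and lowest in the PaSC column.

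Among H/ACA genes the highest was Snora26, with 1539 FPKM in the SG column, 6269.6 in the PlpSC column, 1295.5 in the L/ZSC column and 0 in the PaSC column. Snora52 had 195, 4264, 687 and 206 FPKM, its value in the PlpSC column being 6.21 times that of the next library. Snora28 was listed at 0 in the SG column and had 2913, 1603 and 202 FPKM in the later libraries. All 3 were highest in the PlpSC column, where C/D genes above 0 had a median of 35819 FPKM and H/ACA genes above 0 one of 976 FPKM.

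Snora21 had 338, 2064, 513 and 360 FPKM in the order of the labels. Snora44 had 560.2, 1508, 0 and 0 FPKM, and Snora7a had 624, 1477, 466 and 0 FPKM. The 8 highest C/D genes lay at 44172 FPKM or more in their highest library, whereas these 6 H/ACA genes lay at 6269.6 FPKM or less.

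Most members were listed at 0. Among C/D genes 62, 54, 59 and 64 of 74 were at 0 in the order of the labels, that is 83.8%, 73.0%, 79.7% and 86.5%. Among H/ACA genes 25, 16, 23 and 30 of 36 were at 0, that is 69.4%, 44.4%, 63.9% and 83.3%. Between 20.3% and 23.4% of the other genes were at 0. In all 4 libraries at once, 53 C/D genes (71.6%) and 16 H/ACA genes (44.4%) were listed at 0, against 15.2% of 24316 other genes. The share at 0 was thus higher for C/D than for H/ACA genes in each library, and both were above that of the other genes.

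The zeros were nested. Every snoRNA gene above 0 in the SG column (23) or the L/ZSC column (28) was also above 0 in the PlpSC column, where 40 were above 0. Of the 16 above 0 in the PaSC column, 15 were above 0 in the PlpSC column. The exception was Snord34, at 29912 FPKM in the PaSC column and listed at 0 in the other libraries. The other genes above 0 in 1 column only were all in the PlpSC column, 3 C/D (Snord12, Snord35b, Snord49a) and 5 H/ACA.

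The remaining members above 0 somewhere had part of the same course. Snord35b was at 6812 FPKM in the PlpSC column alone. Snord55 had 29403 FPKM in the PlpSC column and 6327 in the L/ZSC column, and Snord83b, in Rpl3, had 17661 and 15995 FPKM in the same 2 columns, both genes being listed at 0 in the SG and PaSC columns. Of the 5 H/ACA genes above 0 in the PlpSC column alone, Snora31 (host Tpt1) was at 806 FPKM, Snora33 at 755, Snora43 at 718, Snora70 (host Rpl10, on the X chromosome) at 546 and Snora24 at 301. None of these 5 had a value near the lowest C/D gene of that column, Snord67 at 1413 FPKM.

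Snora34 had 1158 FPKM in the PlpSC column and 326 in the L/ZSC column, and Snora64, in Rps2, had 922 and 332 FPKM in these columns, with 0 in the others. Snora81, in Eif4a2, had 154, 584, 201 and 0 FPKM in the order of the labels. Snora16a, which shares the host Snhg12 with Snora44, had 73.95, 272, 0 and 0 FPKM. In each of these 4 genes the PlpSC column held the highest value.

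Several well-known snoRNAs were among those listed at 0 throughout. They were Snord118 (U8), which acts in processing of the large subunit ribosomal RNA, the 3 Snord14 genes (U14), which act in 18S processing, Snora62 (E2), and Snord47 of the Gas5 host. The imprinted Snord64, Snord116, Snord116l1 and Snord116l2, from the region deleted in Prader-Willi syndrome in human, were at 0 as well. U3, U13, U17 and E3 had no gene in the table under the symbols Snord3, Snord13, Snora73 and Snora63. They are therefore in none of the counts and shares given for snoRNAs. Of the textbook snoRNAs, Snord22 (U22), which in Xenopus is needed for 18S processing, had 3324, 20814.5, 4118 and 558 FPKM in the order of the labels. A value of 0 for such RNAs in this table is no measure of their absence.

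Whether a gene was above 0 went with its length. In the RefSeq annotation C/D genes were 28 to 221 nt long (median 68) and H/ACA genes 56 to 198 nt (median 119.5). For 87 of 109 members the GENCODE length was greater, as for Snord98 (28 nt in RefSeq, 65 nt in GENCODE) and Snora19 (56 and 132 nt). A short length here can thus be a short annotation. None of 22 snoRNA genes of 60 nt or less was above 0 in any library. From 61 to 80 nt it was 9 of 31, from 81 to 100 nt 8 of 19, from 101 to 130 nt 13 of 25, and above 130 nt 11 of 12. The shortest gene above 0 had 61 nt in the C/D class and 105 nt in the H/ACA class. For other short genes, mostly microRNA precursors, the counts in these ranges were 0 of 107, 1 of 481, 1 of 365, 3 of 211 and 8 of 30. Length and class cannot be told apart over much of this range, because only 4 H/ACA genes were 100 nt or shorter.

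**Figure D2:**
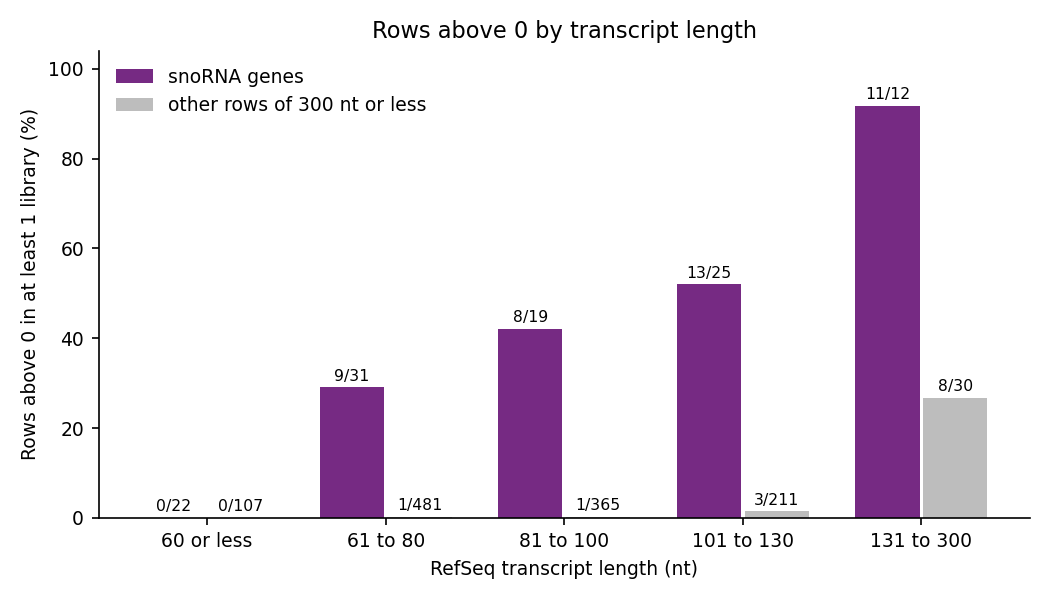
Percent of genes above 0 FPKM in at least 1 library by RefSeq transcript length, for snoRNA genes (purple) and other genes of 300 nt or less (grey), with counts over the bars. The share of snoRNA genes goes from 0 of 22 at 60 nt or less to 11 of 12 at 131 to 300 nt.

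The lowest value that appeared above 0 also went with length. Among 14 snoRNA genes of 61 to 66 nt, 9 of 56 values were above 0 and the lowest was 29912 FPKM. The lowest value above 0 was 6327 FPKM at 67 to 80 nt, 1352 at 81 to 100 nt, 202 at 101 to 130 nt and 31.1 above 130 nt. Up to 100 nt, a snoRNA in this table was therefore either at 0 or at 1352 FPKM or more. FPKM divides by transcript length, or by the part of it on which a fragment can start, and that part is small for RNAs close to the fragment size. Sources used here do not state fragment sizes, so how much of each value comes from this division was not tested. Nor was it tested how much RNA of each length the purification column kept.

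Among genes above 0, FPKM was lower in longer genes. Spearman's rho across genes was -0.70 in the SG column (n = 23), -0.65 in the PlpSC column (n = 40), -0.71 in the L/ZSC column (n = 28) and -0.65 in the PaSC column (n = 16). Within C/D genes alone it lay between -0.68 and -0.62, and within H/ACA genes between -0.64 and -0.32. The genes of a library share its depth and fragment sizes and are not replicates, so these are descriptions. The plot of FPKM against length shows the zeros on the left and a downward slope to the right in each library.

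**Figure D3:**
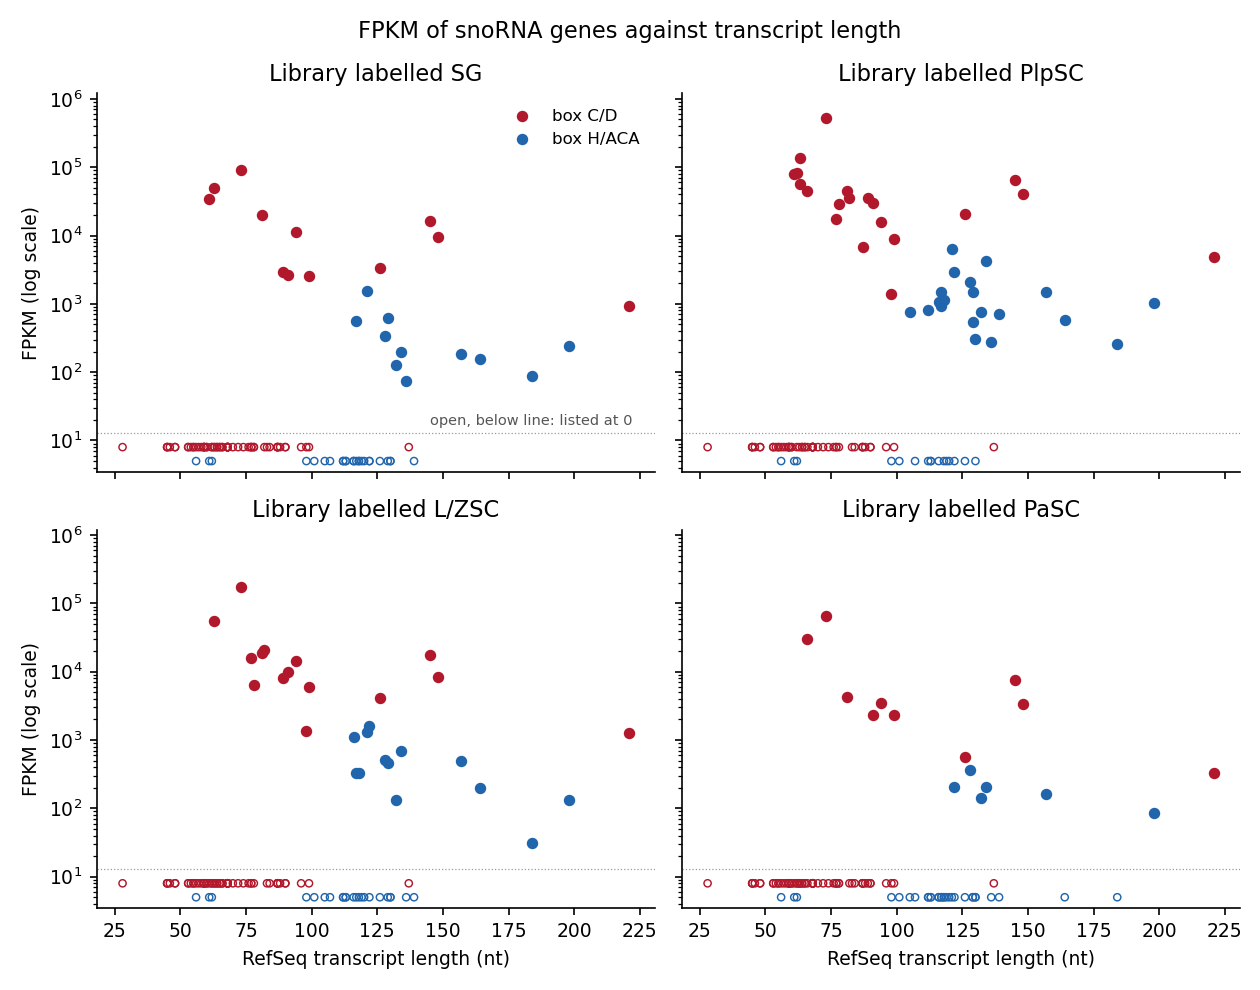
FPKM (log scale) of 109 snoRNA genes against RefSeq transcript length (nt) in each library, C/D in red and H/ACA in blue, with genes listed at 0 as open circles below the dotted line. The highest point in each panel is Snord104 at 73 nt, and the C/D genes at 145 and 148 nt are Snord15b and Snord15a.

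At matched length C/D genes were still the higher ones. From 120 to 221 nt, 4 of 5 C/D genes were above 0 in every library, with medians of 6448 FPKM in the SG column, 30944 in the PlpSC column, 6240.4 in the L/ZSC column and 1956 in the PaSC column. Of 18 H/ACA genes in that range 10, 14, 10 and 6 were above 0, with medians of 188, 900.3, 476 and 183 FPKM. The 4 C/D genes are Snord15a, Snord15b, Snord17 and Snord22, and the fifth, Snord118, was at 0 throughout. With so few C/D genes this is a statement about those genes and not about the class. Snord15a had 9571, 41074, 8363 and 3354 FPKM in the order of the labels. Snord17, at 221 nt in RefSeq the longest member, had 923, 4861, 1279 and 328 FPKM, which overlaps the range of H/ACA genes such as Snora26.

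A total of 9 C/D and 5 H/ACA genes were above 0 in all 4 libraries and give a full course. All 14 were highest in the PlpSC column. In 13 of them the value was lower at each later step, and in Snora17 it was 139.96 FPKM in the PaSC column, against 131 in the L/ZSC column. The ratio of highest to lowest library was largest for Snord22, at 37.3, and smallest for Snord8, at 3.79.

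**Figure D4:**
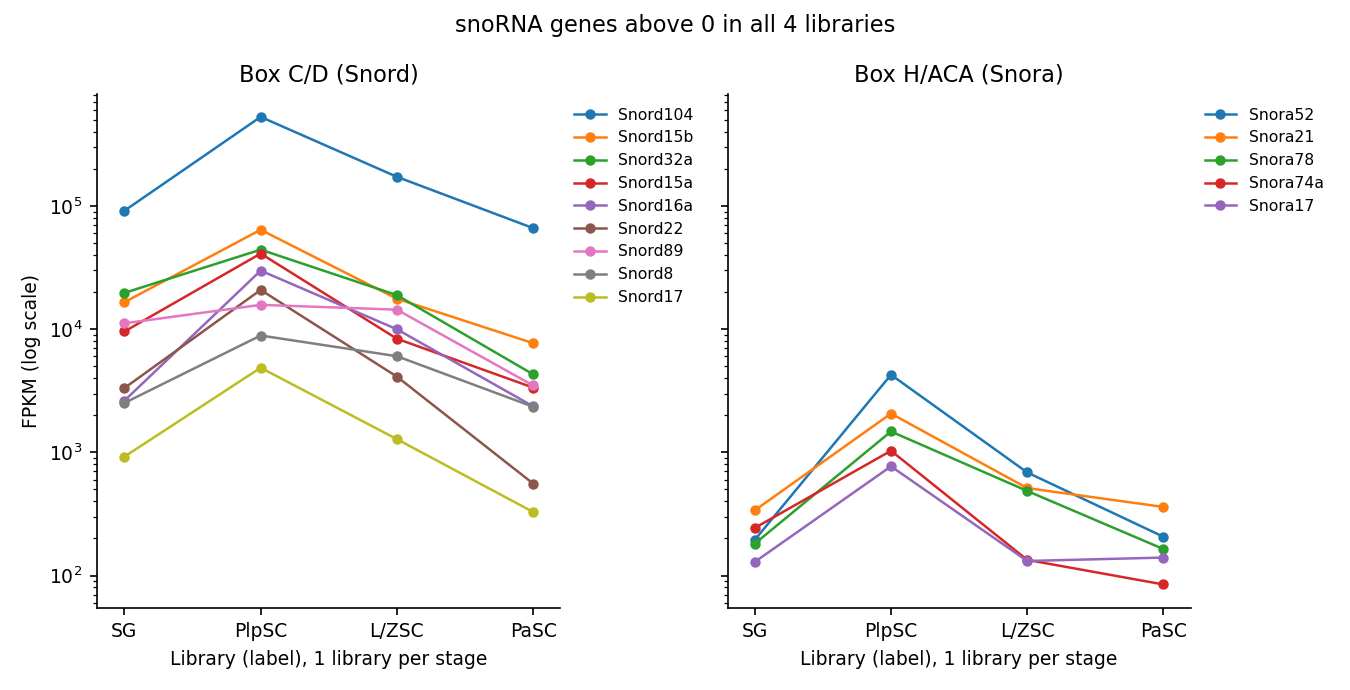
FPKM (log scale) of the 9 C/D genes (left) and the 5 H/ACA genes (right) that were above 0 in all 4 libraries, 1 point per library joined by a line for each gene. Every line peaks at the PlpSC column, and Snord104 lies above all others in every library.

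Among these genes Snord16a (U16) had 2626, 29861, 9981 and 2364 FPKM in the order of the labels, and Snord8 had 2517, 8878, 6032 and 2345 FPKM. Snord89 was the flattest over the first 3 libraries, with 11153, 15746 and 14398 FPKM, and had 3491 FPKM in the PaSC column. The H/ACA genes lay lower. Snora78 had 181, 1477, 486 and 164 FPKM, Snora74a (U19) had 243, 1031, 134 and 84.7 FPKM, and Snora17 had 129, 770.02, 131 and 139.96 FPKM. The PaSC and SG columns were close for several of these genes and far apart for others. The ratio of the PaSC column to the SG column had a median of 0.356 over the 9 C/D genes and of 1.06 over the 5 H/ACA genes, against 0.798 over 16006 genes of the table above 0 in both.

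The first step compared the PlpSC column with the SG column. A call of higher or lower needed a plain ratio over 1.5, or 0 in one column with at least 0.5 FPKM in the other. It was made for genes that reached 0.5 FPKM in any column. Of the 110 members 41 passed this filter, 21 C/D and 20 H/ACA, and a gene can have passed only through the library in which it is high. At this step 38 members were called higher (18 C/D, 20 H/ACA) and 0 lower, where 30.1% of 16652 genes of the table were higher and 30.9% lower. For 17 of the 38 the value in the SG column was 0, and they have no ratio. Of the 23 members above 0 in both libraries, 21 were called higher. Their median ratio was 4.07, with 4.08 over the 12 C/D and 4.07 over the 11 H/ACA genes, while the median over all genes was 1.00.

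The ratio at this step was largest for Snora52, at 21.9, followed by Snord35a at 12.5 and Snord16a at 11.4. Snord35a had 2882 FPKM in the SG column and 35916 in the PlpSC column, then 8028 in the L/ZSC column and 0 in the PaSC column. At the low end were Snord49b at 1.15, Snord89 at 1.41 and Snord32a at 2.24. Every member above 0 in both libraries thus had a ratio over 1 as deposited, and the medians of the classes were close.

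The second step compared the L/ZSC column with the PlpSC column. Here 0 members were called higher and 35 lower (16 C/D, 19 H/ACA), where 30.7% of genes of the table were higher and 45.4% lower. Of 28 members above 0 in both libraries 23 were called lower, with a median ratio of 0.334 over 15 C/D and 0.282 over 13 H/ACA genes, against 0.747 over all genes. The smallest ratios were those of Snora23 at 0.118, Snora74a at 0.130 and Snora52 at 0.161. Snora23, in an intron of Ipo7, had 86.5 FPKM in the SG column, 263 in the PlpSC column, 31.1 in the L/ZSC column and 0 in the PaSC column. The largest were those of Snora15 at 1.04, Snord67 at 0.957 and Snord89 at 0.914. Snora15 was the only member highest in the L/ZSC column, with 1095 FPKM there, against 1053 in the PlpSC column, and was listed at 0 in the other libraries. Snord67 had 1352 FPKM in the L/ZSC column, against 1413 in the PlpSC column.

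The third step compared the PaSC column with the L/ZSC column. One member, Snord34, was called higher and 26 were called lower (15 C/D, 11 H/ACA), where 24.9% of genes of the table were higher and 24.6% lower. Of 15 members above 0 in both libraries 13 were called lower and 0 higher. The median ratio was 0.256 over 9 C/D genes and 0.485 over 6 H/ACA genes, against 0.905 over all genes. The smallest ratios were those of Snora28 at 0.126, Snord22 at 0.136 and Snord32a at 0.228, and the largest those of Snora17 at 1.07, Snora21 at 0.703 and Snora74a at 0.632. The 3 smallest include both classes, whereas the 3 largest are H/ACA genes.

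Of the 41 members that passed the filter 39 were highest in the PlpSC column, 20 of 21 C/D and 19 of 20 H/ACA genes, while 41.1% of the 16611 other genes were highest there. The 2 exceptions were Snord34 and Snora15. Of the 39, 3 C/D and 5 H/ACA genes were above 0 in the PlpSC column alone. They passed the filter only through it and could be highest nowhere else. The column sum of the PlpSC column was 2.53 times that of the SG column, so the count of members highest in the PlpSC column depends on the scale. With every column brought to the same sum, 29 members were highest in the PlpSC column (12 C/D, 17 H/ACA), where 11.4% of other genes were, and the median ratio of the PlpSC column to the SG column was 1.61 over the members above 0 in both, against 0.397 over all genes. On that scale 30 members were called higher and 2, Snord49b and Snord89, were called lower in the PlpSC column than in the SG column, and 18 of 23 members above 0 in both had a ratio over 1. Likewise 25 were called lower and 5 (Snora15, Snord67, Snord8, Snord83b and Snord89) were called higher in the L/ZSC column than in the PlpSC column, and 7 of 28 had a ratio over 1. With scaling by median ratios, in which the PlpSC column and the SG column differ little, 38 members were highest in the PlpSC column.

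The PlpSC column, highest in 5 of 7 meiotic prophase genes, also stood apart in markers of macrophages and of fibroblasts and myoid cells. It did not stand apart in those of every other cell type. All 7 macrophage genes of the list used (such as C1qa and Lyz2) were highest there, with a summed level of 24.7 FPKM in the SG column, 400 in the PlpSC column, 17.4 in the L/ZSC column and 9.29 in the PaSC column. All 6 fibroblast and myoid genes (such as Col3a1 and Dcn) were highest there too, with sums of 49.4, 753, 29.3 and 9.63 FPKM. No gene of these lists was at 0 in any library. By contrast, 4 of 6 Leydig genes were highest in the PaSC column, with sums of 33.7, 717, 49.3 and 2130 FPKM in the order of the labels. Sertoli genes, 6 of 7 highest in the SG column, summed to 1833, 1037, 545 and 116 FPKM. The part of such cells in the snoRNA values was not tested. In bulk RNA more cells of a type and more RNA per cell cannot be told apart.

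Of the 4 highest other short noncoding RNAs, 3 were highest in the PlpSC column and lowest in the PaSC column. Rmrp had 118927 FPKM in the SG column, 586583 in the PlpSC column, 98040 in the L/ZSC column and 21908 in the PaSC column. Rpph1 had 75277, 129025, 22525 and 7400 FPKM. Scarna6, a relative of the snoRNAs that resides in Cajal bodies, had 1912, 9307, 2308 and 693 FPKM. These 3 had ratios of the PlpSC column to the SG column of 4.93, 1.71 and 4.87, beside 4.07 for the median snoRNA. Scarna17 shared the pattern of Snord34, with 51895 FPKM in the PaSC column and 0 in the other libraries, and at 62 nt it is as short. Lower in level, Scarna8 was above 0 in the SG column alone (535 FPKM) and Mir1932 in the L/ZSC column alone (2211 FPKM). Rnu11 had 474, 3546, 0 and 456 FPKM in the order of the labels. Scarna13 had 976, 4292, 562 and 294 FPKM, and Rnu12 had 422, 1390, 657 and 0 FPKM. Terc had 124, 425, 70.7 and 21.3 FPKM, and Vaultrc5 had 3.73, 9.59, 2.58 and 1.22 FPKM. Scarna3a (776 FPKM) and Mir7060 (62.5 FPKM) were above 0 in the PlpSC column alone. Rnu11 and the genes named after it were thus highest in the PlpSC column. Only 9 of 1150 genes named Mir followed by a number were above 0 in any library. They include the long genes Mir22hg (5152 nt) and Mir17hg (2339 nt), which were above 0 in every column. Mir22hg had 8.74, 15.6, 1.27 and 3.16 FPKM in the order of the labels, and Mir17hg had 12.5, 12.7, 7.05 and 5.58 FPKM. Almost all genes so named were thus at 0 and give no values to compare.

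Host genes were found by looking for an annotated gene on the same strand around each snoRNA in GENCODE M21. Of 109 members with a position 105 had such a host, and 101 of these hosts' snoRNAs could be paired with a gene of the table, over 73 host genes. Of these members 32 lay in 23 ribosomal protein genes. Snord104, Snord118, Snora17 and Snora43 had no host, and Snord116 could not be placed. In 8 cases the snoRNA overlapped an exon of its host, among them Snord22 in Snhg1, Snord45c in Rabggtb, Snora44 in Snhg12 and Snora7a in Rpl32, so reads of the snoRNA and the host may be shared there.

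Over C/D and H/ACA genes pooled, the level of a snoRNA hardly went with that of its host. Neither class nor transcript length, with which snoRNA FPKM differed, was held fixed, so a relation within a class was not tested. Across pairs above 0, Spearman's rho between the FPKM of the snoRNA and that of its host was 0.06 in the SG column (n = 19), 0.12 in the PlpSC column (n = 34), 0.13 in the L/ZSC column (n = 24) and 0.23 in the PaSC column (n = 12). With only the highest snoRNA of each host it was below 0 in the first 3 libraries. Snora26 is an example, at 6269.6 FPKM in the PlpSC column where its host Dancr had 1.88 FPKM. Snora52 had 4264 FPKM in that library, in a host, Rplp2, with 1783 FPKM. Snora33 and Snord100 share the host Rps12, which had 2754 FPKM in the PlpSC column. Snora33 was at 755 FPKM there and Snord100 was listed at 0.

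Members above 0 in some library did have hosts with higher values than members at 0 throughout. The median host FPKM was 167, 179.8, 160.3 and 130.04 over the 29 hosts of members above 0 in the order of the labels, and 43.3, 56.1, 32.7 and 33.5 over 53 hosts of members at 0. Hosts of members at 0 nonetheless reached 2754 FPKM in the PlpSC column. Some hosts carry members of both sets.

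The Rpl13a gene shows how far members of 1 host can differ. Rpl13a, a large subunit ribosomal protein gene, had 599 FPKM in the SG column, 1168 in the PlpSC column, 478 in the L/ZSC column and 361 in the PaSC column. From its introns Snord32a was above 0 in all libraries, Snord33 in the middle pair with 35722 and 20825 FPKM, Snord35a in the first 3, and Snord34 in the PaSC column alone. In the order Snord32a, Snord33, Snord35a and Snord34, these snoRNAs are 81, 82, 89 and 66 nt long in RefSeq and 83, 84, 90 and 70 nt in GENCODE. In cultured rodent cells Snord32a, Snord33 and Snord35a are known as mediators of the cell death that excess fatty acid brings about. Snord15a and Snord15b, from introns of Rps3, differed less from each other. Rps3 had 231, 393, 202 and 130.04 FPKM, and both snoRNAs shared its order of libraries except that Snord15b was higher in the L/ZSC column than in the SG column.

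In the median, the steps of the snoRNAs were larger than those of their hosts. For 19 pairs above 0 in the PlpSC column and the SG column the median ratio was 3.87 for the snoRNAs and 1.30 for the hosts, and the snoRNA's ratio was the larger in 18 of 19. For 24 pairs in the L/ZSC column and the PlpSC column the medians were 0.322 for snoRNAs and 0.484 for hosts, with the snoRNA's ratio the larger in 8. For 11 pairs in the PaSC column and the L/ZSC column they were 0.300 and 0.755, and the snoRNA's ratio was the larger in none. A host with several snoRNAs enters once for each, and all pairs share their libraries, so these counts are a description.

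**Figure D5:**
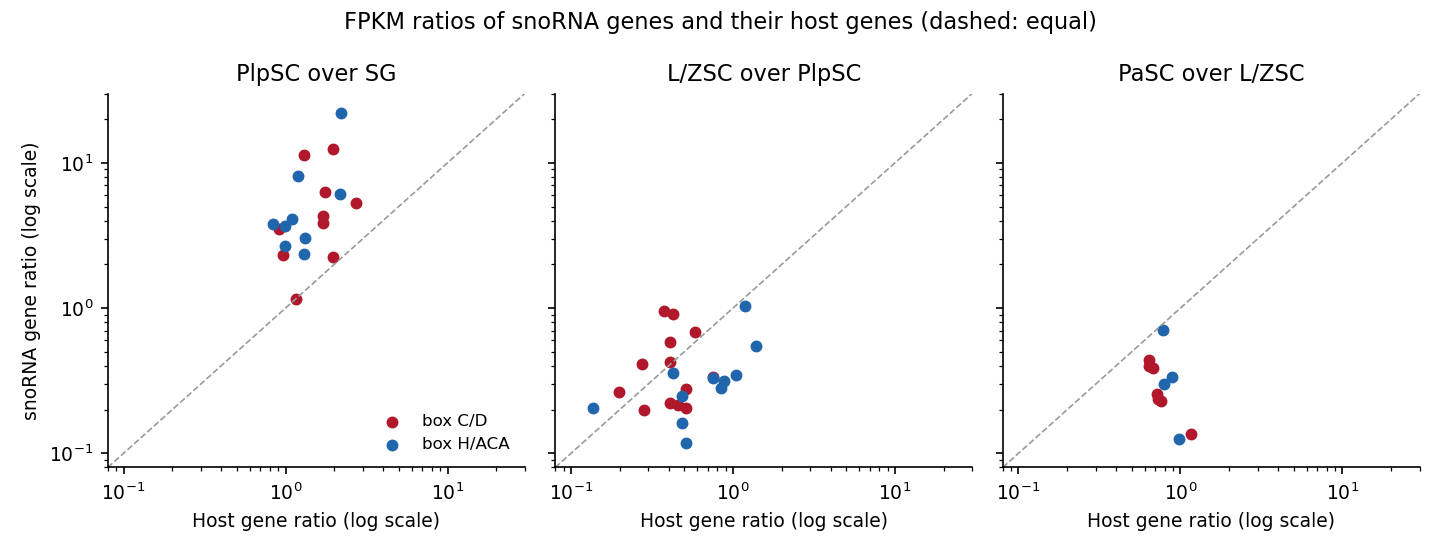
Ratio of FPKM at each step for snoRNA genes (vertical) against their host genes (horizontal), both on log scales, for pairs above 0 in both libraries, C/D in red and H/ACA in blue. In the first panel 18 of 19 points lie above the dashed line of equal ratios, in the second 8 of 24, and in the third 0 of 11.

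The genes for proteins that bind and build snoRNPs, the particles of snoRNA and protein, had smaller ratios. The median ratio of the PlpSC column to the SG column was 1.57 over the 4 C/D core and 1.31 over the 4 H/ACA core genes. Of the 4 C/D core proteins 3 were called higher in the PlpSC column than in the SG column, 4 lower in the L/ZSC column than in the PlpSC column, and 2 lower in the PaSC column than in the L/ZSC column, where 30.1%, 45.4% and 24.6% of all genes were called in these directions. Fbl, the methyltransferase fibrillarin, had 54.7, 65.4, 26.3 and 14.9 FPKM in the order of the labels. Nop56, a scaffold of the C/D particle and the host of Snord57, had 27.7, 45.7, 12.5 and 6.03 FPKM. Both were highest in the PlpSC column and lowest in the PaSC column, with ratios of the PlpSC column to the SG column of 1.19 and 1.65.

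The 4 H/ACA core proteins did not share one course. Dkc1, the pseudouridine synthase dyskerin, had 3.34, 7.79, 1.46 and 0.435 FPKM in the order of the labels and was called higher at the first step and lower at the next 2. Nop10 went the other way over the first steps, with 315, 171, 398 and 331 FPKM. Nhp2 and Gar1 passed the threshold only downward, both in the L/ZSC column against the PlpSC column and Nhp2 also in the PaSC column against the L/ZSC column.

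Among 21 genes for snoRNP assembly, snoRNA processing and export, 6 were called higher and 7 lower in the PlpSC column than in the SG column, 8 higher and 7 lower in the L/ZSC column than in the PlpSC column, and 2 higher and 3 lower in the PaSC column than in the L/ZSC column. Over all genes 30.1% were called higher and 30.9% lower in the PlpSC column than in the SG column, with 30.7% and 45.4% for the L/ZSC column over the PlpSC column, then 24.9% and 24.6% for the PaSC column over the L/ZSC column. Those higher in the PlpSC column included Dbr1, which opens intron lariats (16.1 FPKM, against 8.35 in the SG column), Tgs1, which makes the trimethyl cap (6.46, against 2.44), and Shq1, a dyskerin chaperone (15.4, against 5.11). Those lower included Coil, the Cajal body protein coilin (19.9 FPKM, against 98.5), Ruvbl2 (40.1, against 121) and Pih1d1 (70.8, against 175), both of the chaperone machinery that assembles C/D particles.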

How the data were processed

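RNA was measured in 4 libraries, 1 per stage, by sequencing of total RNA after removal of ribosomal RNA. Per the labels and methods, the authors aligned reads with TopHat (mm10) and quantified RefSeq genes with Cuffdiff. Whether columns were scaled to each other, and which program versions ran, is not given in the sources used here. FPKM are the unit of the table that the authors deposited, which holds values for 24426 genes. It has no read counts, so sequencing depth is unknown and no counting interval is given.

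Members were all genes with symbols beginning Snord or Snora. Members, gene lists, thresholds and alternatives were chosen with earlier results of these data known. A gene was called at a step by a plain FPKM ratio over 1.5 after a filter at 0.5 FPKM in at least 1 library, as the study's methods describe. Medians of log2 differences used a pseudocount of 0.5, which understates changes of low genes above 0 in both columns. Genes at 0 in 1 column enter these medians too, with a difference that rests on the pseudocount. Lengths came from RefSeq (GRCm38.p6), to which 23457 symbols of the table and 857 older symbols could be joined, with 112 left over. Sequences, positions and hosts came from GENCODE M21 (GRCm38, the assembly that mm10 names). For 87 of 109 members the GENCODE transcript was longer than the RefSeq one. Snord116l1 and Snord116l2 have identical sequences, and Snora19 is identical to an annotated snoRNA gene outside the members. The pairs Snord14c and Snord14d, Snord1b and Snord1c, and Snord88a and Snord88c are near-identical. Reads of all these genes could be split.

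The rule for naming genes took the 8 C/D and 6 H/ACA genes of highest FPKM, the 3 largest and 3 smallest ratios at each step, every member above 0 in all libraries, textbook groups, the 4 highest other short noncoding RNAs, hosts, and snoRNP protein genes. Snora33, Snord100 and the other members above 0 in 1 to 3 libraries that it does not take were added after seeing their values. So were Scarna8, Mir1932, Rnu11, Scarna13, Rnu12, Terc, Vaultrc5, Scarna3a, Mir7060, Mir22hg and Mir17hg. Python 3.11.15, pandas 2.3.3, numpy 2.4.6, scipy 1.17.1 and edlib 1.3.9 were used, and plots were drawn with matplotlib 3.10.9.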

Additional observations from a re-analysis of the deposited data

How the results depend on the processing

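With 1 library per stage nothing here has a replicate check, and no paired analysis was possible because no stage has a replicate number to share. The snoRNA share of summed FPKM depended on which genes and which measure entered it. Without the 10 highest genes of each column it was 2.82%, 33.8%, 6.38% and 2.08% in the order of the labels. Of those 10 genes 7, 8, 8 and 4 were snoRNAs, so snoRNA FPKM left the numerator as well as the column sum. Over genes of 300 nt or less the share was 66.9%, 68.4%, 78.0% and 61.8%, the highest then being the L/ZSC column. Multiplied by length it was 1.32%, 6.77%, 1.91% and 0.631%. Without the highest member of each class, which also left both numerator and sum, it was 16.9%, 38.2%, 20.6% and 6.96%. Cutoffs of 0.5 and 5 FPKM could not change the counts of members listed at 0, because the lowest member value above 0 was 31.1 FPKM. Leaving out the 2 members with the sequence of another member (Snord116l1 and Snord116l2) gave 85, 68, 80 and 92 at 0 in the order of the labels. With them it was 87, 70, 82 and 94. Snora19, identical to a snoRNA gene outside the members and at 0 in every column, was kept. So few members have copies that this could hardly move the counts either.

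Counting only genes above 0 in both libraries gave 21 members higher in the PlpSC column than in the SG column, 23 lower in the L/ZSC column than in the PlpSC column, and 0 higher and 13 lower in the PaSC column than in the L/ZSC column. With columns brought to the same sum, 30 were called higher and 2 lower at the first step, and 5 higher and 25 lower at the second. Over members above 0 in both libraries, the median log2 ratio as deposited was 2.03, -1.64 and -1.57 at the 3 steps. With members at 0 in a column included, the median log2 difference as deposited was 3.02, -2.16 and -1.56. It was 1.69, -0.96 and -1.18 with the same sum, 3.14, -2.08 and -1.40 with median ratio scaling, and -1.57 at the last step with a pseudocount of 0.1. With 1 member per host, the rank correlation with the host was -0.0824 in the SG column, -0.00345 in the PlpSC column and -0.0260 in the L/ZSC column. Apart from the scaling, which shifts every gene of a column by the same factor, the cause of these differences was not tested. Depth is unknown, so a value of 0 sets no upper limit.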
